A study of Drosophila melanogaster with 9 samples.

Results

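Catalase and the superoxide dismutases were followed with age in dissected brains of Drosophila melanogaster. The members were the probe sets whose single gene symbol in the platform annotation was Cat, Sod1, Sod2 or Sod3. Of the 18952 probe sets in the deposited table, 4 met this rule and represented 3 of the 4 genes, with 1 probe set for Cat (CG6871; 1639480_at), 1 for Sod2 (CG8905; 1622984_at) and 2 for Sod3 (CG9027). No probe set is annotated to Sod1 (CG11793) alone, and it was not analysed here. The 9 Affymetrix arrays came from brains of naturally aged flies at 3, 30 and 60 days (3d, 30d and 60d), with 3 replicate arrays per age. All flies were raised on cornmeal and molasses food with yeast, and the labels name no strain, sex, genotype or agent that sets the groups apart. The labels do not say whether replicates were separate sets of flies, so the tests speak of the spread between these 9 arrays, which may be technical.

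Superoxide is a by-product of mitochondrial respiration and of several oxidases. Superoxide dismutases turn it into hydrogen peroxide and oxygen, and catalase splits hydrogen peroxide into water and oxygen. The enzymes work in different places: Sod1, which uses copper and zinc, in the cytosol, Sod2, which uses manganese, in the mitochondrial matrix, Sod3, also a copper and zinc enzyme, outside the cell, and Cat mainly in peroxisomes. Brain tissue respires heavily, and flies that lack Sod1, Sod2 or Cat live short lives.

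Signal is given in linear array units, and changes as differences of log2(signal + 1) ± SE from limma fitted to all 9 arrays. Adjusted p-values are limma's after Benjamini-Hochberg correction over the 8171 genes that passed a filter on dim probe sets (at least 3 arrays above the 40th percentile of all values, a signal of 51.3). All 4 member probe sets passed it, and their signals lay above that value on every array. At 3d they stood at percentiles 90.2 (Cat), 88.4 (Sod2), 93.0 (Sod3) and 82.2 (the second Sod3 probe set) of all probe sets. A level of one probe set cannot be set against that of another, so only changes of a probe set are compared. In whole brains, fewer cells of a type and less RNA per cell cannot be told apart.

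The tissue label was checked against marker genes. Among the 8 matched neuron markers 7 exceeded the filter value on at least 1 array, VGlut being dim on all, and so did all 5 glia markers. All 8 matched retina markers did as well, though the label names brain, with summed signals of 12451 to 13600 at 3d, 10033 to 10884 at 30d and 8421 to 9295 at 60d. Of these 8, 6 fell from 3d to 30d and 6 from 3d to 60d (list medians -0.61 and -0.77). Over all genes tested 21.3% and 10.5% fell. The part of retina in the changes of Cat, Sod2 and Sod3 was not tested. On 3d replicate 1 the log2 ratio of 3' to 5' signal was 5.03 for the GAPDH control and 6.76 for the eIF-4a control, against 1.58 to 2.07 and 2.57 to 3.23 on the other 8 arrays. On the first principal component of all genes (53.2% of the variance) 60d replicate 1 lay at -11.6, whereas the other 60d arrays lay at 7.09 and 21.7. The 3d replicates 1, 2 and 3 lay at -21.1, -20.9 and -37.1, so that replicate 3 also lay apart, and the 30d arrays ranged from 18.1 to 22.8. Results that rest on 3d replicate 1 or 60d replicate 1 are given with and without these arrays.

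Cat and Sod2 transcripts were far lower in brains of 30d flies than in those of 3d flies, and Sod2 remained low at 60d. Between 3d and 30d, 2 of the 3 measured genes fell (Cat and Sod2) and Sod3 did not pass by its main probe set, whereas 21.3% of all genes tested fell. Between 3d and 60d, 1 of 3 fell (Sod2), against 10.5% of all genes tested. Both comparisons share the 3d arrays. With 3d and 60d replicate 1 left out, all 3 genes fell in both, but so did 34.2% of all 7914 genes tested then from 3d to 30d and 24.8% from 3d to 60d. For all 3 genes 3d replicate 1 was the lowest 3d array and 60d replicate 1 the highest 60d array. Leaving these arrays out could thus only deepen the falls. Between 30d and 60d limma called 0 of the 3 genes, and 1 was higher at an unadjusted p under 0.05 (Cat), while 0.538% of all genes were called in either direction.

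**Figure D1:**
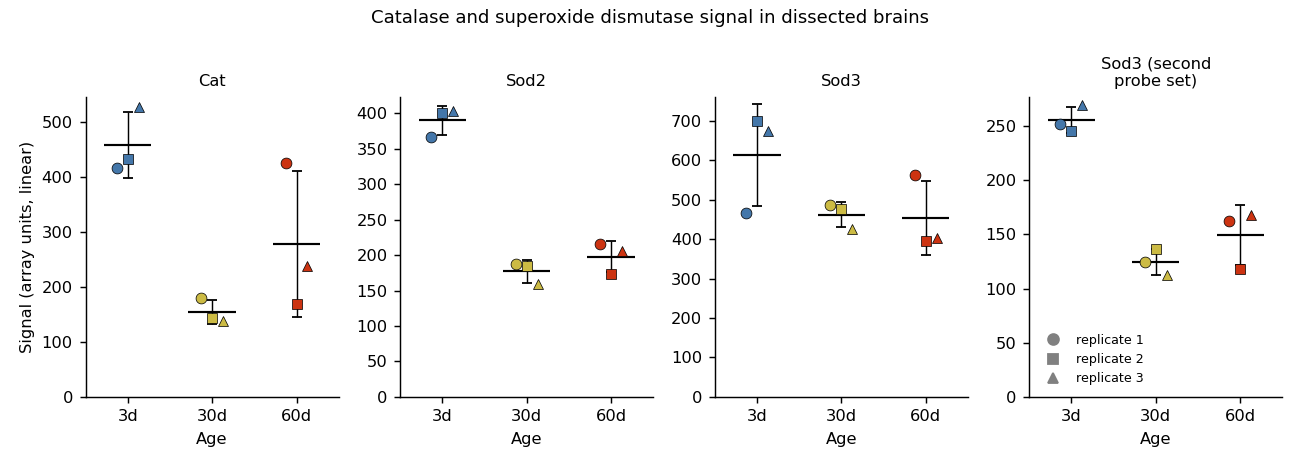
Signal of each member probe set on every array, with age on the x axis and linear array units from 0 on the y axis. Marker shapes stand for replicates 1 to 3, horizontal lines for the mean and whiskers for the SD (n = 3). All 30d arrays lie below all 3d arrays for Cat, Sod2 and the second Sod3 probe set, and Cat on 60d replicate 1 (425) lies within the 3d range.

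Sod2, the manganese enzyme of the mitochondrial matrix and the main remover of superoxide there, had the steadiest pattern. The 3d replicates 1, 2 and 3 read 366, 401 and 404. The 30d replicates read 188, 185 and 159, and the 60d replicates 215, 173 and 206. Every 30d and every 60d array thus lay below every 3d array, while the 30d and 60d arrays overlapped. Such a separation towards lower values was seen for 29.6% of all genes between 3d and 30d and for 17.6% between 3d and 60d.

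From 3d to 30d Sod2 fell to 45.4% of its 3d level (95% interval 36.8% to 56.1%), a change of -1.14 ± 0.14 (adjusted p = 0.00176), and 83 of the 8171 genes had a more negative change. At 60d it stood at 50.7% of its 3d level (95% interval 41.0% to 62.6%), a change of -0.98 ± 0.14 (adjusted p = 0.00161), with 93 genes more negative. The difference between 30d and 60d was 0.16 ± 0.14 (adjusted p = 0.582; 95% interval -0.15 to 0.46), so these neighbouring levels did not differ beyond their spread. Sod2 passed in both comparisons with 3d under every alternative tried, including without 3d and 60d replicate 1 together (-1.18 and -1.09, adjusted p = 0.000292 and 0.000671).

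Cat, the peroxisomal catalase, had the larger fall by 30d and a wide spread at 60d. The 3d replicates read 416, 432 and 526. The 30d replicates read 180, 144 and 138, all below the 3d arrays. On 60d replicates 1, 2 and 3 it was 425, 169 and 238, so that replicate 1 lay within the 3d range and replicate 2 within the 30d range. The SD of log2 signal was 0.67 at 60d, against 0.18 at 3d and 0.20 at 30d.

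At 30d Cat fell to 33.8% of its 3d level (95% interval 22.3% to 51.0%), a change of -1.57 ± 0.27 (adjusted p = 0.00318), and only 11 of the 8171 genes tested had a more negative change. At 60d it stood at 56.7% of its 3d level (95% interval 37.5% to 85.7%). That change of -0.82 ± 0.27 did not pass (adjusted p = 0.0563). It passed without 60d replicate 1 (-1.18, adjusted p = 0.0037), and without 3d and 60d replicate 1 together (-1.24, adjusted p = 0.0013). Replicate 1 held the highest 60d signal of Cat, so leaving it out could only deepen the fall. Without 60d replicate 2 or 3 the change was -0.52 or -0.76 (adjusted p = 0.186 or 0.165), and without 3d replicate 3 it was -0.71 (adjusted p = 0.166). The order of the mean levels was 3d, 60d, 30d, and the step from 30d to 60d was 0.75 ± 0.27 (adjusted p = 0.245). Without 60d replicate 2 that step was 1.05 and passed (adjusted p = 0.0341), and without 60d replicate 1 it was 0.39 (adjusted p = 0.825).

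Markers of the head fat body, a metabolic tissue that can adhere to a dissected brain, varied over the same 60d arrays. The summed signal of the 9 matched fat body markers was 7882, 3570 and 5601 on 60d replicates 1, 2 and 3, which is the order of Cat on these arrays. The matched neuron markers summed to 5760, 5150 and 5157, with replicates 2 and 3 nearly equal, and the glia markers to 5649, 4897 and 4767. On the first principal component of all genes, whose sign is arbitrary, these arrays lay at -11.6, 21.7 and 7.09, with replicate 3 in between. The fat body sum was 5157, 3481 and 4058 on the 3d replicates, where Cat had a different order, and 3096 to 3660 at 30d. Of 8 fat body markers tested 2 rose between 3d and 60d (Pepck1 and AkhR) and 6 did not pass, while 8.03% of all genes rose. AkhR lost its call in 15 of 20 alternatives, and Fbp1 was dim on all arrays. Over the 9 matched haemocyte markers the sum was 2070, 1404 and 1447 on the 60d replicates, 1743 to 2046 at 3d and 1181 to 1311 at 30d, with eater dim on all arrays. Muscle markers summed to 1282 to 1699 at 3d, 1633 to 1769 at 30d and 1847 to 2110 at 60d. Limma called 4 of 8 muscle markers higher at 60d than at 3d, where 8.03% of all genes rose. It called 3 of 8 higher at 60d than at 30d, where 0.538% of all genes were called in either direction. The other muscle markers did not pass. The part of these tissues in the Cat values was not tested.

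**Figure D2:**
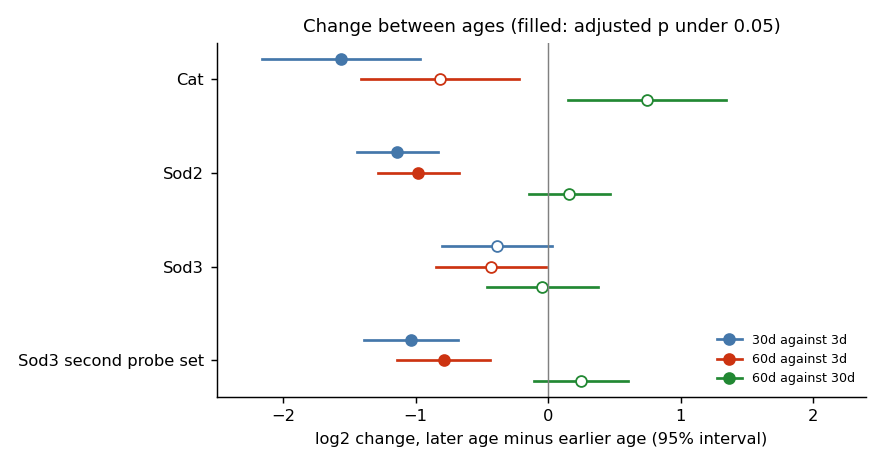
Change of each member probe set between ages on the x axis, as a log2 difference of the later minus the earlier age with its 95% interval. Filled points passed at an adjusted p under 0.05. Cat and Sod2 lie at -1.57 and -1.14 for 30d against 3d, and every interval for 60d against 30d except that of Cat includes 0. Each interval uses a spread pooled over the 3 ages. For Cat the log2 SD was 0.20 at 30d and 0.67 at 60d, and the arrays of these ages overlap.

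Sod3, the extracellular copper and zinc enzyme, gave different answers with its 2 probe sets. RefSeq lists 5 transcripts for this gene, and which of them each probe set reads is not given in the sources used here. The brighter probe set (1636961_a_at), which represented the gene in the tests, read 466, 701 and 675 on the 3d replicates. It read 486, 477 and 426 at 30d and 562, 395 and 404 at 60d. The ages overlapped because 3d replicate 1, the array with the high control ratios, lay among the 30d values.

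By this probe set Sod3 changed by -0.39 ± 0.19 from 3d to 30d and by -0.43 ± 0.19 from 3d to 60d, and neither passed (adjusted p = 0.118 and 0.129). The 95% intervals reached from 57.3% to 102% of the 3d level at 30d and from 55.5% to 99.0% at 60d. Without 3d replicate 1 both changes passed (-0.57 and -0.62, adjusted p = 0.0166 and 0.0229), and without 60d replicate 1 the change from 3d to 60d passed (-0.60, adjusted p = 0.0342). With both arrays left out they were -0.57 and -0.78 (adjusted p = 0.00167 and 0.0013). For this probe set 3d replicate 1 held the lowest 3d signal and 60d replicate 1 the highest 60d signal. Leaving them out could thus only deepen the falls. Without 3d replicate 2 the changes were -0.28 and -0.33 and did not pass (adjusted p = 0.305 and 0.291). Without 60d replicate 3 the change from 3d to 60d was -0.36 (adjusted p = 0.332).

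The second Sod3 probe set (1622906_at) read 252, 245 and 269 on the 3d replicates. It read 124, 137 and 112 at 30d and 162, 118 and 168 at 60d. All 30d and all 60d arrays lay below all 3d arrays, including 3d replicate 1. In a fit with a row for each of 9067 probe sets it fell by 1.04 ± 0.16 from 3d to 30d, to 48.8% of its 3d level (adjusted p = 0.00289). From 3d to 60d it fell by 0.79 ± 0.16, to 57.9% (adjusted p = 0.00882). In that fit 19.6% of probe sets fell from 3d to 30d and 9.58% from 3d to 60d. The difference between 30d and 60d was 0.25 ± 0.16 (adjusted p = 0.48), and 0.386% of probe sets passed in either direction.

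**Figure D3:**
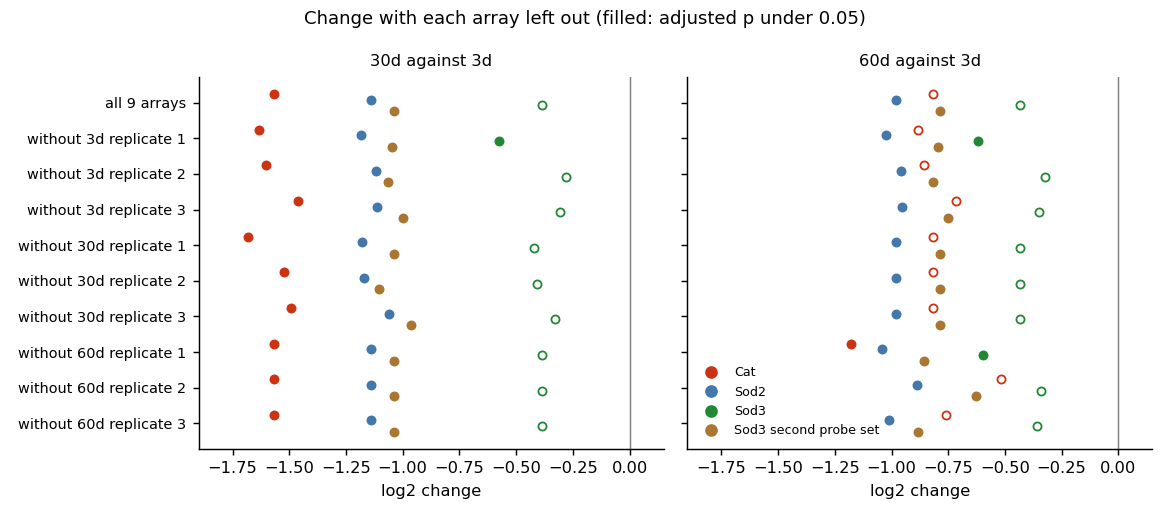
Log2 change from 3d to 30d (left) and from 3d to 60d (right) with all 9 arrays and with each array left out in turn, filled where the adjusted p was under 0.05. Sod2 and the second Sod3 probe set passed in each case, and Cat at 60d passed only without 60d replicate 1. The brighter Sod3 probe set passed without 3d replicate 1 in both panels.

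Whether the members changed by unequal amounts was asked with differences between 2 probe sets on the same array, which do not depend on how arrays were scaled. Differences are given relative to their 3d mean, and each of the 6 pairs of probe sets was tested over the 3 ages by an exact permutation test of an F statistic (1680 arrangements, smallest possible p = 0.00357), adjusted over the 6 pairs. Sod2 minus the brighter Sod3 probe set was -0.74, -0.73 and -0.79 on the 30d replicates and -0.75, -0.55 and -0.34 at 60d. On the 3d replicates it was 0.28, -0.17 and -0.11, above all later arrays (exact permutation p = 0.0107, adjusted p = 0.0321). Cat minus the brighter Sod3 probe set was -1.02, -1.31 and -1.21 at 30d and 0.01, -0.81 and -0.35 at 60d (exact permutation p = 0.0107, adjusted p = 0.0321), with 3d arrays between -0.29 and 0.24. Cat minus Sod2 was -0.28, -0.58 and -0.42 at 30d, below the 3d arrays, but 0.76, -0.26 and -0.01 at 60d, and did not pass (exact permutation p = 0.146, adjusted p = 0.175).

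The 2 calls for differences from the brighter Sod3 probe set were lost without 3d replicate 1 or 3, without any 1 of the 30d replicates and without 60d replicate 3 (adjusted exact p = 0.0643 to 0.139, over fewer arrangements). Cat minus the second Sod3 probe set passed without 60d replicate 1 (adjusted exact p = 0.0357).

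The difference between the 2 Sod3 probe sets also did not pass after adjustment (exact permutation p = 0.05, adjusted p = 0.1). It stood at 0.65 ± 0.09 (SD, n = 3) at 30d and 0.36 ± 0.29 (SD, n = 3) at 60d relative to 3d. On 3d replicates 1, 2 and 3 it was -0.36, 0.27 and 0.08. Sod2 minus the second Sod3 probe set was -0.10 ± 0.08 (SD, n = 3) at 30d and -0.19 ± 0.13 (SD, n = 3) at 60d (exact permutation p = 0.143, adjusted p = 0.175). Cat minus the second Sod3 probe set was -0.53 ± 0.23 (SD, n = 3) at 30d and -0.03 ± 0.51 (SD, n = 3) at 60d (exact permutation p = 0.175, adjusted p = 0.175).

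**Figure D4:**
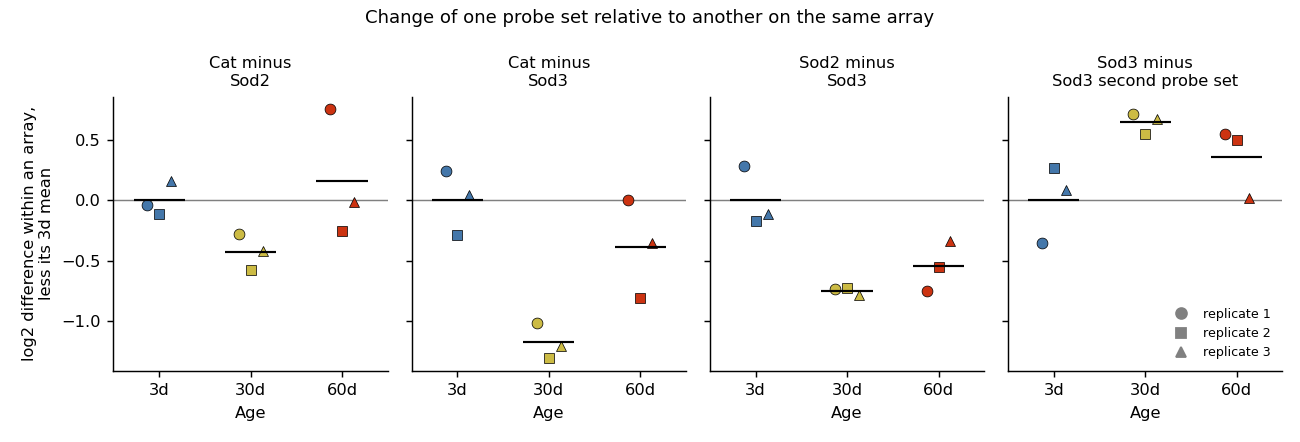
Log2 difference between 2 probe sets on the same array, less its mean at 3d (y axis), by age for 4 of the 6 pairs, with 1 point per array and a line at the mean. Sod2 minus Sod3 lies between -0.79 and -0.34 on all later arrays, and Cat minus Sod2 lies at 0.76 on 60d replicate 1.

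The fall of Cat and Sod2 lay in the first interval. The change from 30d to 60d less the change from 3d to 30d was 2.31 ± 0.47 for Cat, 1.30 ± 0.24 for Sod2 and 0.34 ± 0.33 for the brighter Sod3 probe set (adjusted p = 0.0307, 0.0307 and 0.434). The intervals share the 30d arrays, and 2 of 3 genes passed against 10.1% of all genes in that direction. For the second Sod3 probe set it was 1.28 ± 0.28 (adjusted p = 0.0335), with 8.25% of probe sets called in that direction. The calls for Cat, Sod2 and the second Sod3 probe set were lost without 3d replicate 3, without any 1 of the 30d replicates and without 60d replicate 3 (adjusted p = 0.0627 to 0.151), while Cat remained at 2.17 to 2.54 and Sod2 at 1.14 to 1.38.

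The genes whose log2 signal was most like that of a member over the 9 arrays were found by Pearson's r among all genes tested, as a description. For Sod2 they were Dic1, SRPK and ND-19 (r = 0.992, 0.992 and 0.991). Their changes from 3d to 30d were -0.95, -0.78 and -1.29. For Cat they were Rilpl, prtp and Ubi-p5E (r = 0.992, 0.987 and 0.986), with smaller changes of -0.49, -0.56 and -0.46. For the brighter Sod3 probe set they were CG11248, nSyb and Apt1 (r = 0.973, 0.965 and 0.964), and for the second Trap1, Neurl4 and Synd (r = 0.993, 0.993 and 0.990). Between members r was 0.977 for Sod2 and the second Sod3 probe set, 0.880 for Cat and Sod2, and 0.696 for the 2 Sod3 probe sets. The points share 3 ages and the same arrays.

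In 3 lists of other genes that act on peroxide or its damage, the peroxiredoxins, the thioredoxin genes and the glutathione genes, no gene was called between 3d and 60d, where 8.03% of all genes tested rose and 10.5% fell. Only 4 of 9 listed peroxiredoxins were matched. Of 3 peroxiredoxins tested limma called 0, also at an unadjusted p under 0.05 (list median 0.18, all genes 0.04). Prx3, the mitochondrial peroxiredoxin, stood at -0.34 ± 0.22 at 60d (adjusted p = 0.289) and fell by 0.73 ± 0.22 by 30d (adjusted p = 0.0232). Of 8 genes for thioredoxins and methionine sulfoxide reduction limma called 0 at 60d, while an unadjusted p under 0.05 was reached by 3 higher genes and by 1 lower gene (list median 0.14). The member with the smallest p was dhd, a thioredoxin known from the female germline, at 0.57 ± 0.19 (adjusted p = 0.055). Of 6 genes for glutathione synthesis, glutathione peroxidase and glutaredoxins it called 0, with 2 lower at an unadjusted p under 0.05 (list median 0.10). Grx1, a glutaredoxin, was at -0.42 ± 0.16 at 60d (adjusted p = 0.0878) and fell by 0.74 ± 0.16 by 30d (adjusted p = 0.00688).

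From 3d to 30d these lists held 1 higher and 1 lower of 3 peroxiredoxins, 1 higher and 1 lower of 8 thioredoxin genes, and 2 lower of 6 glutathione genes, against 21.0% of all genes higher and 21.3% lower. Of 5 listed sources of NADPH, the reductant of the thioredoxin and glutathione systems, 3 were matched and tested, and Zw and Pgd were not matched. All 3 fell from 3d to 30d (Men, Men-b and Idh, list median -0.73), and 1 of them by 60d, where 10.5% of all genes fell. That was Men-b, a mitochondrial malic enzyme, which fell from 10.30 ± 0.08 to 9.50 ± 0.07 on the log2 scale (SD, n = 3) between 3d and 60d, a change of -0.80 ± 0.13 (adjusted p = 0.00232).

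Peroxisomes, where Cat works, are assembled by the peroxins. Of 14 peroxisomal genes tested 5 fell, 1 rose and 8 did not pass from 3d to 30d (list median -0.42, all genes -0.01). Over all genes tested 21.3% fell and 21.0% rose in that comparison. From 3d to 60d 2 peroxisomal genes fell and 12 did not pass (list median -0.14), while 10.5% of all genes tested fell. Pex19 and Pex13, which act in membrane protein insertion and matrix protein import, fell by 0.71 ± 0.20 and 0.64 ± 0.17 by 60d (adjusted p = 0.0309 and 0.0235). Pex5, the receptor that carries catalase and other matrix proteins into peroxisomes, fell by 1.06 ± 0.18 by 30d (adjusted p = 0.00318) and was at -0.54 ± 0.18 at 60d (adjusted p = 0.0602). Pex5 was named after its values had been seen. The 60d call of Pex13 was lost without 3d replicate 3 and without 60d replicate 2 or 3, and that of Pex19 without these, without 3d replicate 2 and without 30d replicate 2. Both were also lost with only the 3d and 60d arrays (adjusted p = 0.0766 for Pex13 and 0.0773 for Pex19). In all, Pex19 lost it in 9 of 21 alternatives, among them no filter (adjusted p = 0.0553) and the mean over its probe sets (-0.33, adjusted p = 0.436).

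Of 11 copper, zinc and iron genes tested 1 rose and 10 did not pass from 3d to 60d, and 1 rose and 2 fell from 3d to 30d. Over all genes tested 8.03% rose and 10.5% fell by 60d, and 21.0% rose and 21.3% fell by 30d. Fer3HCH, the mitochondrial ferritin, rose by 0.56 ± 0.17 by 60d (adjusted p = 0.0419), from a mean of 5.08 at 3d to 5.64. Both means lay below the filter value of 5.71, and only the 30d mean of 5.94 lay above it. The 60d call of Fer3HCH thus compares 2 dim ages. It was lost in 12 of 17 alternatives, 7 of them with 1 array left out. Ccs, the chaperone that loads copper into Sod1, was at 0.00 ± 0.16 at 30d and -0.08 ± 0.16 at 60d (adjusted p = 0.988 and 0.744). It too was named after its values had been seen.

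Of 12 regulators of the oxidative stress response 2 rose, 1 fell and 9 did not pass from 3d to 60d, and 2 rose and 3 fell from 3d to 30d. The shares of all genes rising and falling were 8.03% and 10.5% by 60d, and 21.0% and 21.3% by 30d. DJ-1alpha, a homologue of the human Parkinson's disease protein DJ-1, rose by 1.14 ± 0.13 (adjusted p = 0.000606). Its log2 signal was 7.34, 7.50 and 7.65 on the 3d replicates and 8.68, 8.58 and 8.64 on the 60d replicates, with no overlap, a separation towards higher values seen for 13.5% of all genes. The transcription factor foxo rose by 0.52 ± 0.13 and the stress kinase bsk (JNK) fell by 0.55 ± 0.13 (adjusted p = 0.0212 and 0.018). Both calls were lost without 3d replicate 3 and without 60d replicate 2, and that of foxo also without 60d replicate 3. That of foxo was lost too with median centring (0.35, adjusted p = 0.111), and that of bsk with the mean over its probe sets (-0.27, adjusted p = 0.328). With only the 3d and 60d arrays neither foxo nor bsk passed (adjusted p = 0.0857 and 0.0717).

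Among 7 oxidases and haem peroxidases 2 rose, 1 fell and 4 did not pass from 3d to 60d, and 3 rose and 2 fell from 3d to 30d. By 60d 8.03% of all genes tested rose and 10.5% fell, and by 30d 21.0% rose and 21.3% fell. Irc, an immune-regulated enzyme with catalase activity, rose by 0.90 ± 0.24 (adjusted p = 0.0272), with log2 signals of 10.03, 8.84 and 9.57 on 60d replicates 1, 2 and 3 and 8.54 to 8.66 at 3d. The Irc call was lost without 3d replicate 2 or 3, without 60d replicate 3, and with median centring (0.73, adjusted p = 0.0718) or no filter (adjusted p = 0.0501). It was also lost with only the 3d and 60d arrays (adjusted p = 0.0677). Pxn (peroxidasin), which crosslinks collagen and is also made by haemocytes, fell by 1.41 ± 0.18 (adjusted p = 0.000932), a call lost with the mean over its probe sets (adjusted p = 0.0921). CG42331, annotated here only by its identifier, rose by 0.53 ± 0.17 (adjusted p = 0.0491) from a mean of 5.60 at 3d, below the filter value, and lost its call in 16 of 19 alternatives. Between 30d and 60d limma called 0 genes in each of these 8 lists, with 0 to 3 genes per list at an unadjusted p under 0.05.

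With 3d and 60d replicate 1 left out, many more genes were called from 3d to 60d, 26.7% of all genes tested rising and 24.8% falling, and the list counts are to be read against these shares. In that fit 5 of 13 peroxisomal genes, 4 of 12 regulators and all 3 NADPH sources fell, and 3, 2 and 0 rose. Of the 6 oxidases and haem peroxidases 4 rose and 1 fell, and of the 11 copper, zinc and iron genes 2 rose and 2 fell. Of 3 peroxiredoxins, 8 thioredoxin genes and 6 glutathione genes 1, 2 and 1 rose and 1, 2 and 2 fell.

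The SOD relatives Rsod and Sodq, looked up after the annotation had been read, had signals of 1.46 to 7.91 and 9.93 to 22.8, below the filter on all arrays, and were not tested.

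**Figure D5:**
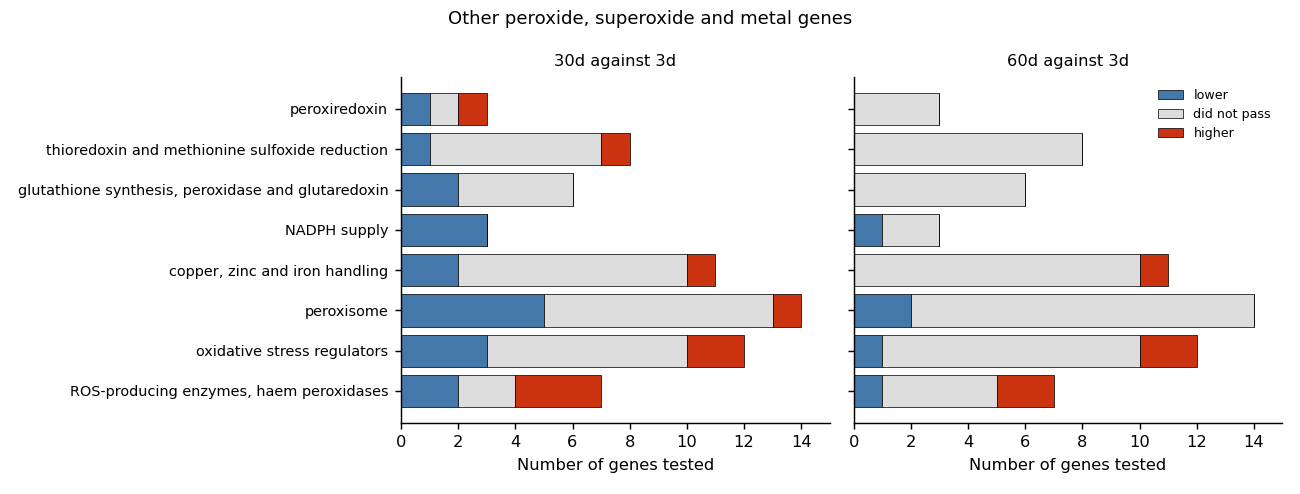
Number of genes tested in each list (x axis) that were lower, did not pass or were higher at an adjusted p under 0.05, for 30d against 3d (left) and 60d against 3d (right). The peroxisome list held 5 lower genes of 14 at 30d and 2 at 60d, and the 3 tested NADPH sources were all lower at 30d. Of all genes tested 21.3% were lower at 30d and 10.5% at 60d.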

How the data were processed

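The authors deposited linear signal intensity for 18952 probe sets on 9 arrays. GCRMA and MAS5 appear, with no role given, in the submitters' processing notes, and per the labels the target was made with an Ovation cDNA and biotin kit. The trimmed mean was 150.002 on every array and the median signal 60.6 to 78.3, so arrays were scaled but not quantile normalized. With 3 arrays per age, their number limits the precision.

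The log2(signal + 1) values were used without further normalization. The 183 control probe sets were left out. Each of 11983 genes was represented by its probe set with the highest mean. Group means of 3 ages were fitted in limma 3.58.1 (R 4.3.3), two-sided, with Benjamini-Hochberg adjustment over 8171 genes and a threshold of 0.05. Single differences were tested by exact permutation (Python 3.11.15). On simulated data of that size for 60d against 3d, the fit recovered 90.8% of 2-fold and 100% of 4-fold changes, and 5.07% of calls were false.

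Members and lists were chosen with earlier results of these data known. Of 163 list entries 131 matched a gene. Named were all members, up to 2 called list genes per direction without overlap between 3d and 60d, or the one with the smallest p, and the 3 genes most like each member. Alternatives changed the normalization, pseudocount, filter, probe rule, covariates, prior and arrays.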

Additional observations from a re-analysis of the deposited data

Results flagged for a closer look

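For 3 probe sets the change over the second interval differed, by limma's test of the difference itself, from the change over the first. The change from 30d to 60d less that from 3d to 30d was 2.31 ± 0.47 for Cat (adjusted p = 0.0307), 1.30 ± 0.24 for Sod2 (adjusted p = 0.0307) and 1.28 ± 0.28 for the second Sod3 probe set (adjusted p = 0.0335). Cat changed by -1.57 in the first interval and by 0.75 in the second, Sod2 by -1.14 and 0.16, and the second Sod3 probe set by -1.04 and 0.25. The 30d arrays enter both intervals. Over all alternatives the adjusted p ran from 0.00554 to 0.143 for Cat, from 0.00631 to 0.143 for Sod2 and from 0.0104 to 0.151 for the second Sod3 probe set.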

How the results depend on the processing

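The falls of Cat, Sod2 and the second Sod3 probe set from 3d to 30d, and of Sod2 and the second Sod3 probe set from 3d to 60d, passed under all alternatives run. Leaving out 1 array at a time, Cat ranged from -1.68 to -1.46 from 3d to 30d, from -1.18 to -0.52 from 3d to 60d and from 0.39 to 1.05 from 30d to 60d. Sod3 (brighter probe set) ranged from -0.57 to -0.28, from -0.62 to -0.33 and from -0.21 to 0.04, turning positive without 60d replicate 2 (0.0447) or 3 (0.0289). The difference between intervals ranged from 1.95 to 2.62 for Cat, from 1.14 to 1.39 for Sod2 and from 1.14 to 1.45 for the second Sod3 probe set. With no filter these were 2.31, 1.30 and 1.28 and did not pass (adjusted p = 0.0564, 0.0564 and 0.0615).

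Cat from 3d to 60d passed with median centring (-0.99), with pseudocount 16 (-0.78), with a trended robust prior (-0.82) and without both first arrays (-1.24). It did not pass in 16 of 21 alternatives. Sod3 from 3d to 30d and 60d passed with the mean over its probe sets (-0.71 and -0.61), with the GAPDH ratio as a covariate (-0.54 and -0.61) and without both first arrays (-0.57 and -0.78), and from 3d to 30d with median centring (-0.65). Its change from 30d to 60d turned positive with median centring (0.0478) and with the mean over probe sets (0.10). The cause was not tested.

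Counts of called genes ranged, with 1 array left out, from 594 to 2473 for 60d against 3d, from 1533 to 4502 for 30d against 3d, from 9 to 495 for 60d against 30d and from 0 to 3433 for the difference between intervals, against 1511, 3455, 44 and 1507. The 0 arose in limma without 30d replicate 2, with 2221 genes at an unadjusted p under 0.05. Without both first arrays they were 4072, 5250, 67 and 3604. For 60d against 30d, quantile normalization gave 81 and no filter 22. No filter gave 2 for the difference between intervals and the covariate 3261, and only the arrays of 3d and 60d gave 588 for their comparison.

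Deviations of same-numbered arrays from their age means correlated at -0.33 to 0.14, and 5 of 18 correlated best with their own number. With 3 arrays per age these values cannot decide whether the replicate number marks a pairing. The replicate block gave 20 genes for 60d against 30d and 948 for the difference between intervals, and changed no call of Cat, Sod2 or Sod3, while Pex19 and Fer3HCH lost their calls from 3d to 60d. Adjusted exact p-values with 1 array left out ran from 0.0214 to 0.139 for Sod2 or Cat minus Sod3, and from 0.0357 to 0.425 for Cat minus the second Sod3 probe set.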
